A study of Mus musculus with 33 samples.

Results

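The nuclear genes of the mitochondrial respiratory chain were followed through reprogramming of mouse embryonic fibroblasts (MEFs) with and without overexpressed Dppa2 and Dppa4. Members were all genes of the expression table whose symbol began with Nduf followed by a, b, c, s or v and a number (complex I, 37 genes), was Sdha, Sdhb, Sdhc or Sdhd (complex II, 4 genes), or began with Uqcr (complex III, 8 genes), Cox4 to Cox8 with a letter (complex IV, 19 genes) or Atp5 (complex V, 18 genes). A pseudogene name holding -ps was left out, which gave 86 members of 37973 genes. The rule works on names, so it took in Cox4nb, which GENCODE calls Emc8 and which is no oxidase subunit, Atp5sl, which GENCODE calls Dmac2, its relative Atp5s, and Atp5l2, annotated as a processed pseudogene. It counted Ndufa4 and Ndufa4l2 with complex I, although Ndufa4 is now placed in complex IV, and it left out Ndufab1 and Cyc1.

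The respiratory chain is built in the inner mitochondrial membrane. Complex I oxidises NADH and complex II succinate, both pass electrons through ubiquinone to complex III, cytochrome c carries them to complex IV, which reduces oxygen, and the proton gradient that complexes I, III and IV build drives ATP synthesis by complex V. Pluripotent cells are known for a glycolytic metabolism, and several subunits of complex IV come in a usual form and a variant form restricted to muscle, lung, testis or low oxygen.

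PolyA RNA was sequenced from cells of the genotype Col1a1-OSKM+/-; Rosa26-rtTA+/-; Oct4-GFP+/-, made from MEFs of embryos at 14 to 15 days post coitum. These cells were transduced with lentivirus and carried the doxycycline-inducible cassette of Pou5f1, Sox2, Klf4 and Myc (OSKM), induced with 1 μg/ml doxycycline. The arms were control overexpression (13 libraries) and Dppa2/4 overexpression (17 libraries), sorted at day 2, 4, 8, 11 or 14 into Thy1+SSEA1- cells, which keep the fibroblast marker Thy1, Thy1-SSEA1- cells, Thy1-SSEA1+ cells, which carry an early marker of reprogramming, and GFP+ cells, in which the Oct4-GFP reporter is on. A pair of Thy1+SSEA1+ libraries (days 2 and 4) exists in the Dppa2/4 arm, and a pair of day 2 libraries is titled rtTA-MEF with a genotype that lacks the OSKM allele, while its description calls it OSKM-rtTA MEF at day 1. The table's columns for that pair name the arm and day but no gate, and they were given to it because every other sample of that arm and day has a column of its own title. The control Thy1+SSEA1- sample of day 11 is not analysed here.

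Each combination of arm, day and gate was 1 library, so comparisons rest on days and gates as the repeats, and p-values measure the spread between these libraries. Implied depth ran from 22.4 to 42.7 M fragments in the 30 OSKM libraries and was 13.5 and 17.0 M in the rtTA-MEF pair. Fibroblast markers (8 genes) summed to between 602.6 and 5651 FPKM among Thy1-SSEA1- cells, and between 26.3 and 78.5 FPKM in the GFP+ libraries, and pluripotent markers (6 genes) to at most 186.6 FPKM in the former and at least 2883 FPKM in the latter. Some labels went against the data or each other. The library labelled Dppa2/4 day 4 Thy1+SSEA1- had Dppa2 at 0.354 FPKM, within the 0.149 to 0.916 FPKM of the SSEA1- control libraries. The rtTA-MEF pair held Pou5f1 at 122 FPKM in the control and 1116 FPKM in the Dppa2/4 library, although its genotype names no OSKM allele. The description of the day 11 GFP+ control library names another gate than its title.

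The promoters printed here are of 6 members that the GFP+ comparison called, 3 lower (Ndufb7, Uqcrh, Uqcr11) and 3 higher (Cox5a, Cox7a1, Cox7b2) in GFP+ cells. These 6 are examples picked by hand from the calls. The 3 lower ones all hold the ETS core marked below and the 3 higher ones do not. Of the 7 members called lower with a promoter used here, 4 held this core. Ndufa13, Atp5d and Ndufc2, also called lower, lacked it and are not printed. Each runs 5′ to 3′ on the gene's strand from 250 bases before to 50 bases after the start in RefSeq (GRCm38.p6), and capitals mark the ETS core CCGGAAG and the hypoxia element core, ACGTG or GCGTG, on either strand.
Ndufb7 (chr8:83566508-83566807, plus strand): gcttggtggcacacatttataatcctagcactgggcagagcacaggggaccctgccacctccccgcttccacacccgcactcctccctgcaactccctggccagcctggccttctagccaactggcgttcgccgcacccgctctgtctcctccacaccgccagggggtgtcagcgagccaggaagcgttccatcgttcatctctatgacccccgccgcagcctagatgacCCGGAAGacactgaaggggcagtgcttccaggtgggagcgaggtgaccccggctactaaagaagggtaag
Uqcrh (chr4:116075021-116075320, minus strand): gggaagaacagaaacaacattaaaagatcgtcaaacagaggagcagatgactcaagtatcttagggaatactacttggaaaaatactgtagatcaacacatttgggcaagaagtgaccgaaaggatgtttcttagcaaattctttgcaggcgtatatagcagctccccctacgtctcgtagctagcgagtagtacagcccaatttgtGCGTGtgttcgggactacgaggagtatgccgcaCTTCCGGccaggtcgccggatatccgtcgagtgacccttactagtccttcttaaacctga
Uqcr11 (chr10:80406772-80407071, minus strand): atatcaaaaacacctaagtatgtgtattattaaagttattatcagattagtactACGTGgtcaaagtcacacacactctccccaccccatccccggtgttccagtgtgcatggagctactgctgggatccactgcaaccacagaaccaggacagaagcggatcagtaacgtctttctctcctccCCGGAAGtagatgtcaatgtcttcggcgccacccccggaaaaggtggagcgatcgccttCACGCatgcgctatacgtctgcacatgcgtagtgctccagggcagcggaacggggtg
Cox5a (chr9:57520982-57521281, plus strand): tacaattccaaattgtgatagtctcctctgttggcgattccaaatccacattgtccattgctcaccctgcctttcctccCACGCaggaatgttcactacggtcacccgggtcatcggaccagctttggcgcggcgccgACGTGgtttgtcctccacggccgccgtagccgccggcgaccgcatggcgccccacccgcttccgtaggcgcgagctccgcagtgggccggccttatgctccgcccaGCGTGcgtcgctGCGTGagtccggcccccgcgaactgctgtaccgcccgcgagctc
Cox7a1 (chr7:30183921-30184220, plus strand): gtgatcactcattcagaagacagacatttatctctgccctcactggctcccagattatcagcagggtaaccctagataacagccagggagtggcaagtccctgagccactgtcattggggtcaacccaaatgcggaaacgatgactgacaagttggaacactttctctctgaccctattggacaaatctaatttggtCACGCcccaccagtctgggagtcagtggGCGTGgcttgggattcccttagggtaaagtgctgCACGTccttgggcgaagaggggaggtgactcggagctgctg
Cox7b2 (chr5:71548156-71548455, minus strand): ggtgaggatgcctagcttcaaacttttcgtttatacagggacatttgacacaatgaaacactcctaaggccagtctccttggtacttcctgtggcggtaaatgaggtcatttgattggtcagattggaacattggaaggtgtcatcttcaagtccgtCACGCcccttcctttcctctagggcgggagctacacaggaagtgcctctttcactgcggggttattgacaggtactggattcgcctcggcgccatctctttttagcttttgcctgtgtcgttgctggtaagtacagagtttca

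RefSeq promoters were used for 69 members. No promoter on chromosome 18, where Atp5a1 and Ndufa2 lie, was used for the members. On either strand, the ETS core CCGGAAG, bound by factors such as GABP, stood in promoters of 16 members (23.2%), where 9.93% of all 27025 genes in the RefSeq table had it in at least 1 promoter. The YY1 motif AAGATGGC stood in promoters of 11 members (15.9%) and of 3.19% of all genes. The NRF1 motif stood in promoters of 5 members, Atp5g2, Atp5k, Cox6a1, Ndufa11 and Uqcrc1 (7.25%), and of 1.07% of all genes, and the estrogen-related receptor motif TCAAGGTCA in 2, Atp5g3 and Sdhd (2.90%, against 0.466% of all genes). The short hypoxia element core was common, with 46 members (66.7%) and 46.7% of all genes. The ETS and hypoxia cores do not overlap in the sequences shown. Per promoter of this length, the shares over all 32851 promoters were 8.86% for the ETS core, 2.75% for YY1, 0.971% for NRF1, 0.423% for the estrogen-related receptor and 43.8% for the hypoxia element core. A match is a string of letters, not a site known to be bound.

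The chain as a whole was expressed strongly in every library and moved little. The 86 members summed to 13072 FPKM in the lowest and 28054 FPKM in the highest OSKM library, with a median of 20187 FPKM. That was 1.95% to 3.75% of all FPKM of a library. The lowest was the Dppa2/4 day 11 Thy1-SSEA1- library and the highest the Dppa2/4 day 4 Thy1+SSEA1+ library. By complex, the highest library held 2.00 times the lowest for complex I, 1.71 times for complex II, 1.83 times for complex III, 2.22 times for complex IV and 2.42 times for complex V. In all 5 complexes the lowest library was the same one, Dppa2/4 day 11 Thy1-SSEA1-.

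**Figure D1:**
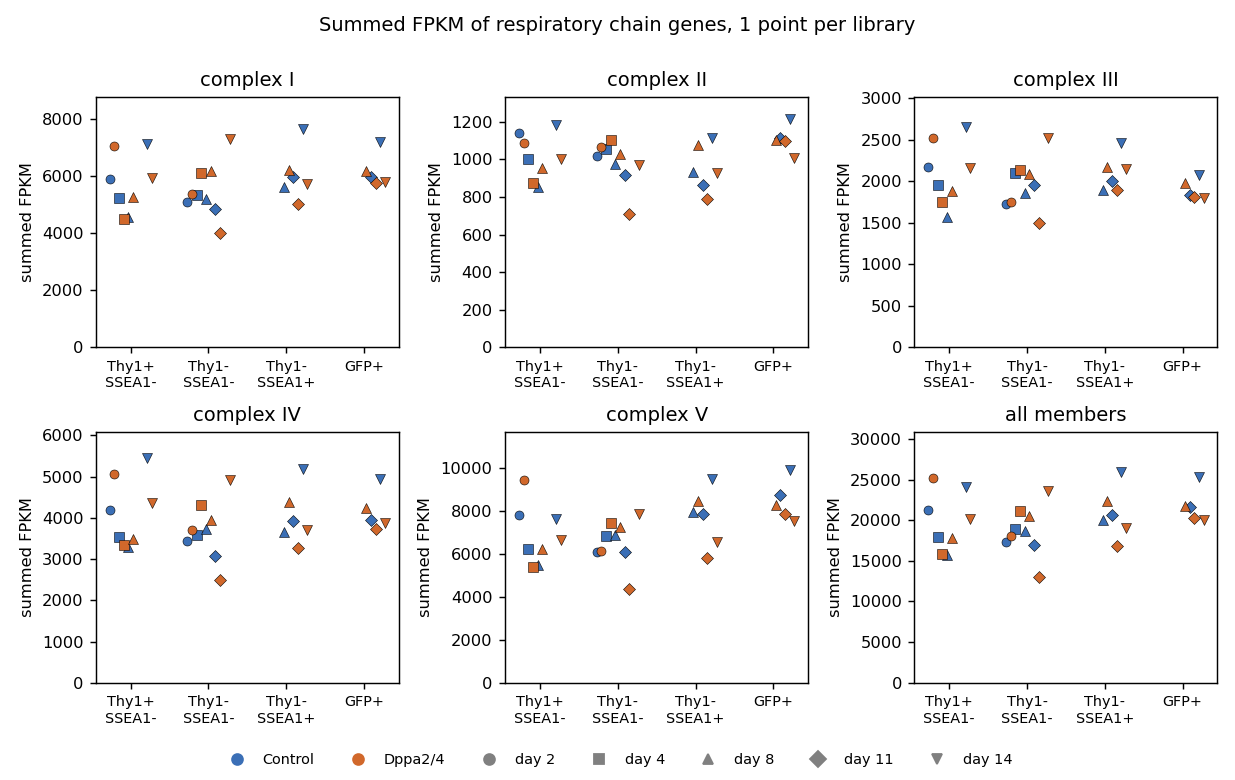
Summed FPKM of the members of each complex and of all 86 members (vertical axis, from 0) by gate (horizontal axis), 1 point per library, with colour for the arm and shape and position for the day; the Thy1+SSEA1+ and rtTA-MEF libraries are not drawn. Libraries of each gate spread over a common range, and the Dppa2/4 day 11 Thy1-SSEA1- library is the lowest point in each panel.

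Levels differed far more between members than between libraries. In FPKM, which is per length, the members with the highest median over the 30 OSKM libraries were Atp5b (1848 FPKM) and Atp5a1 (811.7 FPKM), the beta and alpha subunits of the catalytic head of ATP synthase, followed by Uqcrh, the hinge protein of complex III (665.9 FPKM), and Cox6b1 (665.8 FPKM). A median of at least 50 FPKM was reached by 69 members. Of the 81 members above 0 in every OSKM library, 49 kept the highest library under 3 times the lowest and 61 under 4 times. Only 3 of these 81 spanned 10 times or more: Cox4i2 (382 times), Ndufa4l2 (70.0 times) and Cox7a1 (35.8 times). The other 5 members had at least 1 library at 0 and a median under 1 FPKM: Cox7b2, Cox6a2 and Cox8b, variant forms of testis and of striated muscle, Cox8c and the pseudogene Atp5l2. Of these 5, Cox7b2 alone passed the filter of 1 FPKM in at least 2 libraries, so 82 members were tested. Not every variant form was low: Cox6b2, the variant of Cox6b1, had a median of 112.7 FPKM (53.5 to 254.8 FPKM). It was called in no comparison.

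Members varied together to a moderate degree. Over the 30 OSKM libraries the median Pearson correlation of log2(FPKM + 1) between 2 members was 0.489 within a complex and 0.476 between complexes. With the mean of all other members, 65 of 82 correlated above 0.5, with Ndufa9 (0.926), Cox8a (0.923) and Cox7a2 (0.912) the highest. Ndufs1, the largest iron-sulfur subunit of complex I (-0.06), Cox4nb (-0.04) and Sdha, the flavoprotein of complex II (0.08), did not follow the others, and Cox4i2 (0.24), Cox7b2 (0.27) and Ndufa4l2 (0.27) followed them weakly. These correlations describe libraries that share a table and its scaling. The 13 subunits encoded by mitochondrial DNA are listed at 0 in every library, as are all 37 rows with the prefix mt-, so the mitochondrial share of the chain is not analysed here.

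The comparison of the arms asked whether Dppa2 and Dppa4 changed the chain. Between arms, 13 strata of day and gate had a library of each, and limma was fitted on log2(FPKM + 1) with the stratum as a block. Of 82 tested members, 3 were higher in the Dppa2/4 arm (3.66%) and 4 lower (4.88%) at an adjusted p under 0.05, where 15.9% of all 17242 tested genes were called higher and 7.60% lower. The log2 difference was below 0 in 61 members, and above 0 in 54.6% of all genes. Its median was -0.08 over the members and 0.03 over all genes. After quantile normalization it was -0.03 over both the members and all genes, and after scaling to equal sums -0.02 over the members and 0.07 over all genes. By complex, the medians were -0.08 for complex I, -0.07 for complexes II and III, -0.02 for complex IV and -0.14 for complex V. No Sdh or Uqcr gene was called. Dppa2 was at the control level in both arms for Thy1+SSEA1- cells at day 4. Without these 2 libraries, Cox7a2l and Atp5g2 were called lower too (limma, adjusted p = 0.0687 and 0.052 with all 13 strata). Atp5g2 was also called when day 8 Thy1-SSEA1+ was left out instead.

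The largest difference was in Cox4i2, the variant of the regulatory subunit COX4 found in lung and induced by low oxygen. In Thy1+SSEA1- cells at days 2, 4, 8 and 14, control libraries held 2.43, 4.38, 2.60 and 37.6 FPKM and Dppa2/4 libraries 15.9, 5.82, 12.5 and 64.4 FPKM. In Thy1-SSEA1- cells at days 2, 4, 8 and 11 the controls held 3.07, 1.49, 1.32 and 1.99 FPKM and Dppa2/4 libraries 5.69, 14.0, 10.1 and 15.3 FPKM, with 47.7 FPKM at day 14, which has no control. In Thy1-SSEA1+ cells at days 8, 11 and 14 the values were 0.169, 0.413 and 7.84 FPKM in controls and 4.96, 11.1 and 21.0 FPKM in the Dppa2/4 arm. The Dppa2/4 library was thus higher in every stratum of these 3 gates, the smallest gap being at day 4 in Thy1+SSEA1- cells, where the library labelled Dppa2/4 had Dppa2 at the control level. GFP+ cells held 0.599 and 3.48 FPKM in controls at days 11 and 14 and 1.18, 1.65 and 4.37 FPKM in the Dppa2/4 arm at days 8, 11 and 14. Cox4i2 (chr2:152754173-152765037, plus strand, GRCm38) was higher in 13 of 13 strata, by 1.62 ± 0.25 (SE) on the log2 scale (limma, adjusted p = 0.000996).

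The usual form Cox4i1 lay between 276 and 916 FPKM in the OSKM libraries, and its log2 difference between arms was -0.13 (limma, adjusted p = 0.469). Cox4i2 made up a median of 0.964% of the FPKM of the pair, and at most 8.19%, in the Dppa2/4 day 14 Thy1+SSEA1- library. Even at its highest it remained a minor form in FPKM.

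Ndufa4l2, a paralog of the complex IV subunit Ndufa4 that is known as a target of hypoxia-inducible factor, rose by 0.96 ± 0.21 (SE) (limma, adjusted p = 0.00586, higher in 11 of 13 strata). In Thy1-SSEA1+ cells it stood at 1.38, 6.12 and 44.4 FPKM in controls at days 8, 11 and 14 and at 5.68, 26.7 and 57.6 FPKM in the Dppa2/4 arm. In Thy1-SSEA1- cells, controls held 4.64, 2.13, 1.73 and 2.48 FPKM at days 2, 4, 8 and 11 and Dppa2/4 libraries 3.74, 4.51, 6.97 and 22.0 FPKM. The strata that went the other way were day 2 Thy1-SSEA1- and day 14 GFP+ (49.4 FPKM in control, 44.6 FPKM in Dppa2/4). Ndufa4l2 (chr10:127514967-127517154, plus strand, GRCm38) overlaps Shmt2, which lies on the opposite strand, and whether counting used strand is not given in the sources used here. Shmt2, named after its value was seen, did not pass the test between arms (log2 difference -0.08, limma adjusted p = 0.764).

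Day 14 was the high point of both genes. Cox4i2 and Ndufa4l2 had their highest OSKM library at Dppa2/4 day 14 Thy1+SSEA1- (64.4 and 96.4 FPKM), and the control library of that day and gate held 37.6 and 59.0 FPKM, against at most 4.38 and 5.74 FPKM at earlier days of that arm and gate. Egln3, a prolyl hydroxylase induced by low oxygen, was looked up after its values were seen and is given as a description. It held 161.6 FPKM in the control and 257 FPKM in the Dppa2/4 library of day 14 Thy1+SSEA1- cells, and 22.0 and 18.7 FPKM at day 2. Oxygen was not measured, and its part in the values of Cox4i2 and Ndufa4l2 was not tested.

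The other calls between arms were small. Atp5s, known as coupling factor B, rose by 0.33 (limma, adjusted p = 0.0122, 11 of 13 strata), from a mean of 7.18 FPKM in controls to 9.38 FPKM. Ndufb11, an accessory subunit of the membrane arm of complex I, fell by 0.35 (adjusted p = 0.00663) and was lower in 12 of 13 strata, with means of 105.7 FPKM in controls and 81.9 FPKM in Dppa2/4. Atp5a1 fell by 0.32 (limma, adjusted p = 0.00904, lower in 12 of 13 strata), from a mean of 984 to 785 FPKM. Cox4nb fell by 0.41 (limma, adjusted p = 0.00555, lower in 12 of 13 strata). Its annotated gene overlaps Cox4i1 on the opposite strand. Atp5sl fell by 0.27 (limma, adjusted p = 0.0438), a call that ended when any 1 of 10 of the 13 strata was left out (adjusted p up to 0.0904).

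**Figure D2:**
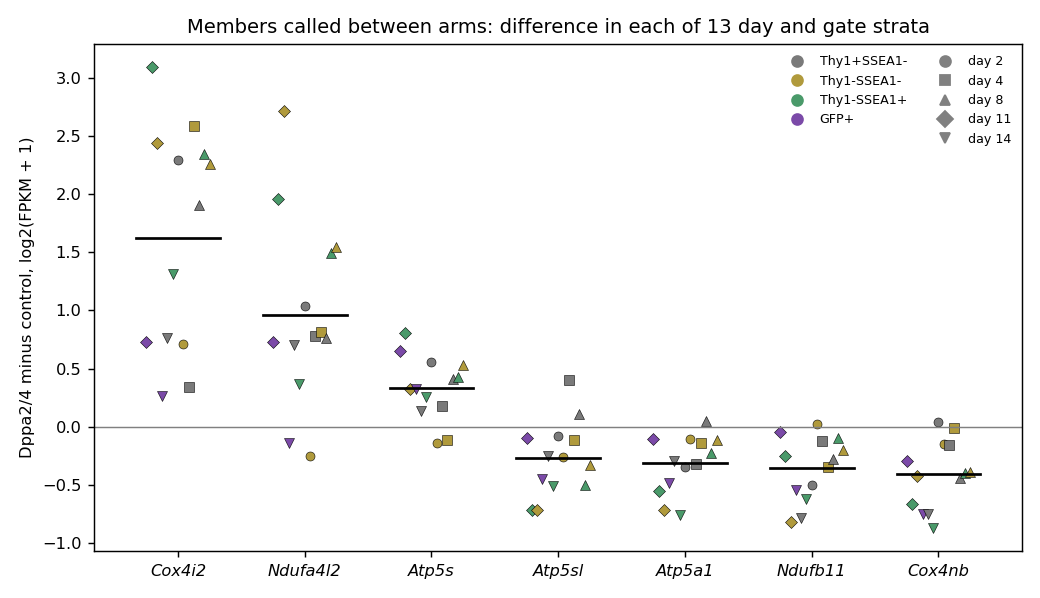
Dppa2/4 minus control difference of log2(FPKM + 1) (vertical axis) for the 7 members called between arms (horizontal axis), 1 point per stratum of day and gate, with colour for the gate and shape for the day; bars are the fitted difference. All 13 points of Cox4i2 lie above 0, with the lowest at 0.26 and the highest at 3.10, while the 4 members called lower sit mostly between 0 and -0.90.

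The effect of Dppa2/4 was also compared between classes of gates. The SSEA1+ and GFP+ strata were all of day 8, 11 or 14, while the SSEA1- strata ran from day 2 to day 14. Gate class and day are therefore mixed in this comparison and were not separated. Against the SSEA1- strata, the log2 difference between arms in the SSEA1+ and GFP+ strata was lower in 71 of 82 members. It was higher in 51.2% of all genes. The median was -0.20 over the members and 0.01 over all genes. The members' median was -0.13 both after quantile normalization and after scaling to equal sums. No member passed the test (limma, interaction term), where 0.847% of all genes did. At an unadjusted p under 0.05, 0 members were higher and 7 lower, with no matching share of all genes counted. Complex III had a median of -0.27, complex IV of -0.27, complex I of -0.20 and complex V of -0.18, and complex II of 0.01. All 6 pluripotent markers had negative values in this comparison as well (median -1.36, none called). Leaving out the Thy1+SSEA1- stratum of day 4, where the Dppa2/4 library lacked Dppa2, gave 1 member called lower.

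Genes around the chain, in lists of assembly factors (47 genes), regulators of mitochondrial biogenesis (20, of which 18 tested) and electron carriers or subunits outside the naming rule (17), were read against the same 15.9% of all genes higher and 7.60% lower between arms. Of assembly factors, 2 were higher (4.26%) and 5 lower (10.6%). Cox17, the copper chaperone of complex IV, rose by 0.54 (limma, adjusted p = 0.00362) and Ttc19, a complex III factor, by 0.46 (adjusted p = 0.0141). Of the regulators, 1 was higher (5.56%) and 4 lower (22.2%), among them Tfb1m, a mitochondrial rRNA methyltransferase (-0.42, limma adjusted p = 0.0105), and Myc, part of the OSKM cassette (-0.575, adjusted p = 0.0456, lost when any 1 of 10 of the 13 strata was left out). Of the carriers, 2 were higher (11.8%) and 5 lower (29.4%). Cyct, the testis form of cytochrome c, was higher in 13 of 13 strata, by 1.00 ± 0.17 (SE) (limma, adjusted p = 0.00178), with 11.2 FPKM in control and 17.3 FPKM in Dppa2/4 Thy1-SSEA1+ cells at day 14 and 30.7 and 53.8 FPKM in GFP+ cells. Germ cell markers moved with the arm: 6 of 6 were higher in Dppa2/4, where 15.9% of all genes were. Their summed level was 1.38 to 37.3 FPKM (median 2.49) in control and 1.74 to 89.3 FPKM (median 32.0) in Dppa2/4 strata. None of the 6 was at 0 throughout, but Dazl, Mael, Taf7l and Tex101 were at 0 in their lowest library. The list was chosen with earlier results of these data known, so its count is given as a description. The part of these markers in Cyct was not tested. In bulk libraries, fewer cells of a type and less RNA per cell cannot be told apart.

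The comparison across the loss of Thy1 called almost no gene, so its lack of member calls says nothing particular about the chain. Over 7 pairs of Thy1-SSEA1- and Thy1+SSEA1- libraries of the same arm and day, 0 of 82 members passed the test in either direction (limma). Of all genes 0.00580%, 1 gene, did. At an unadjusted p under 0.05, 2 members were higher and 1 lower, with no matching share of all genes counted. The median log2 difference was 0.05 over the members and 0.00 over all genes.

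Among Thy1- cells, SSEA1+ libraries were compared with SSEA1- libraries of the same arm and day. Over 5 pairs, 2 members, Cox7a1 and Atp5sl, were higher in SSEA1+ cells (2.44%) and 1, Cox4i2, lower (1.22%), where 8.24% of all genes were higher and 10.5% lower. The log2 difference was positive in 60 of 82 members and in 50.2% of all genes. Its median was 0.10 over the members and 0.00 over all genes. By complex it was 0.08 for complex I, 0.05 for complex II, 0.16 for complex III, 0.11 for complex IV and 0.21 for complex V, with no called member in complexes I, II and III. The marker sums of this paragraph cover all libraries of each gate, also those outside the pairs. Fibroblast markers moved with this gate, 8 of 8 lower (median -2.50, 602.6 to 5651 FPKM summed in SSEA1- and 68.0 to 417 FPKM in SSEA1+ libraries). Pluripotent markers were 6 of 6 higher (median 2.32, 1.08 to 186.6 FPKM summed in SSEA1- and 236.1 to 1781 FPKM in SSEA1+ libraries), and the part of either list in the members' differences was not tested.

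Cox7a1, the form of COX7A that predominates in heart and skeletal muscle, held 10.3 and 11.0 FPKM in control Thy1-SSEA1- cells at days 8 and 11 and 16.7 and 38.2 FPKM in the SSEA1+ cells of the same days. In the Dppa2/4 arm at days 8, 11 and 14 it held 13.7, 17.2 and 52.8 FPKM in SSEA1- and 32.4, 56.2 and 64.0 FPKM in SSEA1+ cells. It was higher in 5 of 5 pairs, by 1.09 ± 0.25 (SE) (limma, adjusted p = 0.0348). Cox4i2 went the other way, lower in SSEA1+ cells in 5 of 5 pairs by 0.91 ± 0.15 (limma, log2 difference -0.91, adjusted p = 0.0173), and Atp5sl was higher in 5 of 5 pairs (0.77 ± 0.13, adjusted p = 0.0168). With 5 pairs these calls were fragile. Leaving out any of 4 pairs (all but Dppa2/4 day 14) ended that of Cox7a1, with adjusted p up to 0.114. Leaving out the pair Control day 8, Control day 11 or Dppa2/4 day 8 ended that of Cox4i2 (up to 0.0708) and that of Atp5sl (up to 0.0702).

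Among the lists, Esrrb, an orphan receptor that regulates oxidative genes and is itself a pluripotency factor, rose by 2.48 ± 0.26 (SE) (limma, adjusted p = 0.00955) from a mean of 5.09 FPKM in SSEA1- to 40.2 FPKM in SSEA1+ cells; without the pair Control day 11 its adjusted p was 0.0510. Nrf1, a regulator of respiratory genes, rose by 0.75 (limma, adjusted p = 0.0179) from 22.4 to 38.5 FPKM. Its call was lost without any 1 of 4 of the 5 pairs (adjusted p up to 0.0706). Of 18 tested regulators, Esrrb and Nrf1 were the 2 called higher (11.1%), and none was lower. Of assembly factors 2 were higher (4.26%) and 1 lower (2.13%), and of carriers 2 were higher (11.8%) and 1 lower (5.88%). Of all genes 8.24% were higher and 10.5% lower.

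The step from SSEA1+ to GFP+ cells gave the most calls, among members and among all genes alike. Over 5 pairs, 10 members were higher in GFP+ cells (12.2%) and 9 lower (11.0%), where 17.1% of all genes were higher and 24.3% lower. The median log2 difference was 0.02 over the members and -0.09 over all genes. Quantile normalization moved the median of all genes by 0.12, to 0.03, and turned that of the members to -0.04. Calls fell in both directions within complexes I, IV and V. The longest annotated transcript was under 1000 bases in 43 of the 86 members. Of the lower calls, Ndufa2, Ndufc2, Uqcrh, Uqcr11, Atp5k and Cox4i2 were among these, and Ndufb7, Ndufa13 and Atp5d were not. Of the higher calls, only Cox7a1 and Cox7b2 were among these. The part of transcript length in the calls was not tested.

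**Figure D3:**
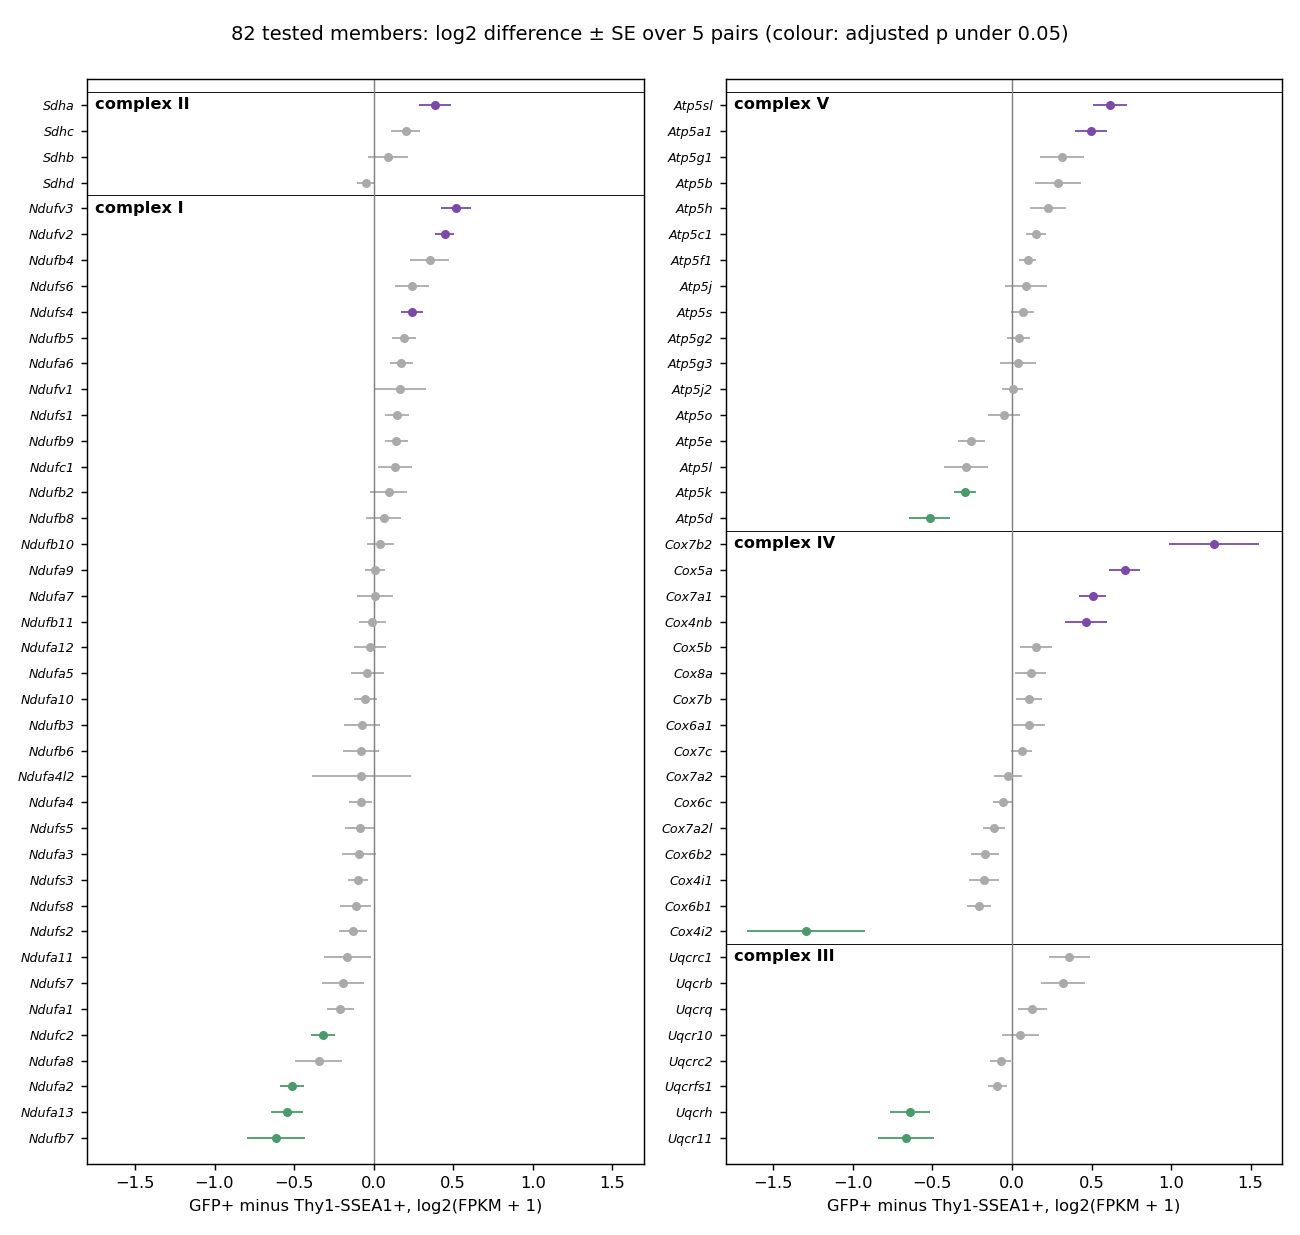
Difference between GFP+ and Thy1-SSEA1+ cells in log2(FPKM + 1) (horizontal axis) for each of the 82 tested members, grouped by complex and ordered by size; bars are the standard error of the fit over 5 pairs, purple marks members called higher, green lower and grey not called. Most members lie within 0.50 of 0, and Cox7b2 at 1.27 and Cox4i2 at -1.30 lie farthest out.

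In complex I, 3 of 37 members rose (Ndufv2, Ndufv3 and Ndufs4) and 4 fell (Ndufb7, Ndufa13, Ndufa2 and Ndufc2). Ndufv2, a subunit of the part that takes electrons from NADH, held 183 and 236 FPKM in control SSEA1+ cells at days 11 and 14 and 174, 164 and 173 FPKM in Dppa2/4 SSEA1+ cells at days 8, 11 and 14. In GFP+ cells of the same arms and days it held 249, 294, 225, 240 and 253 FPKM. Every GFP+ library was above its SSEA1+ partner, and the groups overlapped only at the control day 14 SSEA1+ library. Ndufv2 rose by 0.45 ± 0.06 (SE) (limma, adjusted p = 0.00496) and Ndufv3 by 0.52 (adjusted p = 0.0102), from a mean of 131 to 186 FPKM. Ndufv1, the partner that binds the flavin, did not pass the test (log2 difference 0.17, limma adjusted p = 0.422). Ndufb7, an accessory subunit of the membrane arm, went from a mean of 35.7 to 22.0 FPKM (log2 difference -0.61, limma adjusted p = 0.0426) and Ndufa13 from 39.4 to 26.7 FPKM (-0.55, adjusted p = 0.0116), each lower in 5 of 5 pairs.

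In complex II, Sdha held 327, 346, 386, 301 and 362 FPKM in SSEA1+ cells (control days 11 and 14, then Dppa2/4 days 8, 11 and 14) and 480, 457, 449, 478 and 387 FPKM in GFP+ cells. All GFP+ libraries lay above all SSEA1+ libraries, the nearest being Dppa2/4 day 14 GFP+ and Dppa2/4 day 8 SSEA1+. Sdha rose by 0.39 ± 0.10 (SE) (limma, adjusted p = 0.0306). Sdhb, the iron-sulfur subunit, and the membrane anchors Sdhc and Sdhd did not pass (log2 differences 0.09, 0.20 and -0.05, limma adjusted p = 0.592, 0.137 and 0.531).

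In complex III, 2 of 8 members fell, Uqcrh and Uqcr11. Uqcrh held 585, 830, 631, 735 and 817 FPKM in SSEA1+ cells in the same order and 457, 450, 507, 465 and 411 FPKM in GFP+ cells, with no overlap. It fell by 0.64 ± 0.13 (SE) (limma, adjusted p = 0.0135). Uqcr11 fell by 0.66 (limma, adjusted p = 0.0317), from a mean of 112 to 68.1 FPKM, with 53.6 FPKM in Dppa2/4 day 14 SSEA1+ cells against 45.6 FPKM in the GFP+ partner as its smallest gap. The other 6 Uqcr genes were not called.

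In complex IV, Cox5a, a subunit beside the membrane on the matrix side, held 204, 234, 222, 151 and 191 FPKM in SSEA1+ cells and 354, 372, 305, 314 and 286 FPKM in GFP+ cells. The groups did not overlap, and Cox5a rose by 0.71 ± 0.10 (SE) (limma, adjusted p = 0.00528). Cox7a1 rose further, by 0.51 ± 0.08 (SE) (limma, adjusted p = 0.008), to 51.4 and 115 FPKM in control GFP+ cells at days 11 and 14 and 55.8, 69.2 and 99.5 FPKM in Dppa2/4 GFP+ cells at days 8, 11 and 14. It made up 13.2% to 26.6% of the FPKM of Cox7a1 and Cox7a2 together in GFP+ libraries (median 18.5%) and 1.37% to 11.8% in Thy1-SSEA1- libraries (median 4.31%). Of the 9 muscle markers, 5 (Myod1, Myog, Myh3, Tnnt2 and Ckm) stayed under 1 FPKM in every OSKM library. Over all libraries of each gate, the 9 summed to 17.8 to 35.5 FPKM in GFP+ and 4.47 to 23.8 FPKM in SSEA1+ cells. In the highest library, Dppa2/4 day 14 GFP+, Des alone held 33.6 FPKM. Of the 4 muscle markers tested between these gates, 1 was called higher and 1 lower, and 3 had negative differences (median -0.215).

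Cox7b2, the testis form of COX7B, was low throughout. It was at or below 0.445 FPKM in all SSEA1- OSKM libraries, and 0 in the 8 control ones. In SSEA1+ cells it held 0.323, 2.13, 0.256, 0.316 and 0.928 FPKM in the order above, and in GFP+ cells 2.57, 4.58, 0.548, 4.85 and 4.96 FPKM. Each GFP+ library was above its SSEA1+ partner, and the low GFP+ library was Dppa2/4 day 8. Its share of Cox7b and Cox7b2 never passed 0.932%. It passed the filter on low values through the SSEA1+, GFP+ and rtTA-MEF libraries where it is high, so its call, 1 of the 10 higher members, is given as a description. Cox4i2 was lower in GFP+ cells in 4 of 5 pairs (log2 difference -1.30 ± 0.37, limma adjusted p = 0.0387). Its means were 2.26 FPKM in GFP+ and 9.06 FPKM in SSEA1+ cells, and the exception was control day 11, at 0.599 against 0.413 FPKM.

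In complex V, Atp5a1 rose by 0.50 ± 0.10 (SE) (limma, adjusted p = 0.0136) from a mean of 947 to 1316 FPKM, while its partner Atp5b did not pass (0.29, adjusted p = 0.162). Atp5d, the delta subunit, fell by 0.52 (limma, adjusted p = 0.0247), from 94.2 to 63.6 FPKM. Atp5k, the e subunit, fell by 0.30 (limma, adjusted p = 0.023), from 365 to 294 FPKM. The c-ring genes Atp5g1, Atp5g2 and Atp5g3 were not called. Atp5sl rose by 0.62 (limma, adjusted p = 0.00914) and Cox4nb of the complex IV names by 0.47 (adjusted p = 0.0365).

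Single pairs were left out for the 15 calls named by the rule, and not for Ndufa2, Ndufc2, Ndufs4 and Cox4nb. Of the 15, 6 held whichever pair was left out: Ndufv2, Ndufv3, Ndufa13, Cox5a, Cox7a1 and Atp5sl. Those of Ndufb7, Sdha, Uqcr11, Uqcrh, Cox7b2, Cox4i2, Atp5a1, Atp5d and Atp5k were each lost without at least 1 pair, with adjusted p up to 0.12 (Cox4i2). Among members with a RefSeq promoter used here, the ETS core stood in 4 of 7 called lower (Atp5k, Ndufb7, Uqcr11 and Uqcrh). It stood in 0 of 8 called higher and 12 of 53 not called, a split looked at after the calls were known. Each of these 4 lower calls was lost without at least 1 pair, while that of Ndufa13, which lacked the core, held. Fibroblast markers moved with this gate, 8 of 8 lower and none at 0 throughout (68.0 to 417 FPKM summed in SSEA1+, 26.3 to 78.5 FPKM in GFP+), and pluripotent markers 6 of 6 higher (236.1 to 1781 FPKM summed in SSEA1+, 2883 to 5362 FPKM in GFP+). These sums cover all libraries of each gate, also the control day 8 SSEA1+ library, which has no GFP+ partner. The part of either list in the members' differences was not tested.

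Genes around the chain were read against the same 17.1% of all genes higher and 24.3% lower. Of 47 assembly factors 11 were higher (23.4%) and 5 lower (10.6%), with Nubpl, which delivers iron-sulfur clusters to complex I, at 0.82 (limma, adjusted p = 0.00293) and Sco1, a copper chaperone of complex IV, at 0.75 (adjusted p = 0.004). Of 18 regulators 9 were higher (50%) and 2 lower (11.1%), with Esrrb at 2.20 (limma, adjusted p = 0.00678) and Pprc1, a coactivator of respiratory genes, at 1.35 (adjusted p = 0.0045). Of 17 carriers 5 were higher (29.4%) and 2 lower (11.8%), with Cyct at 1.84 (limma, adjusted p = 0.00327), from a mean of 7.81 to 26.6 FPKM.

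**Figure D4:**
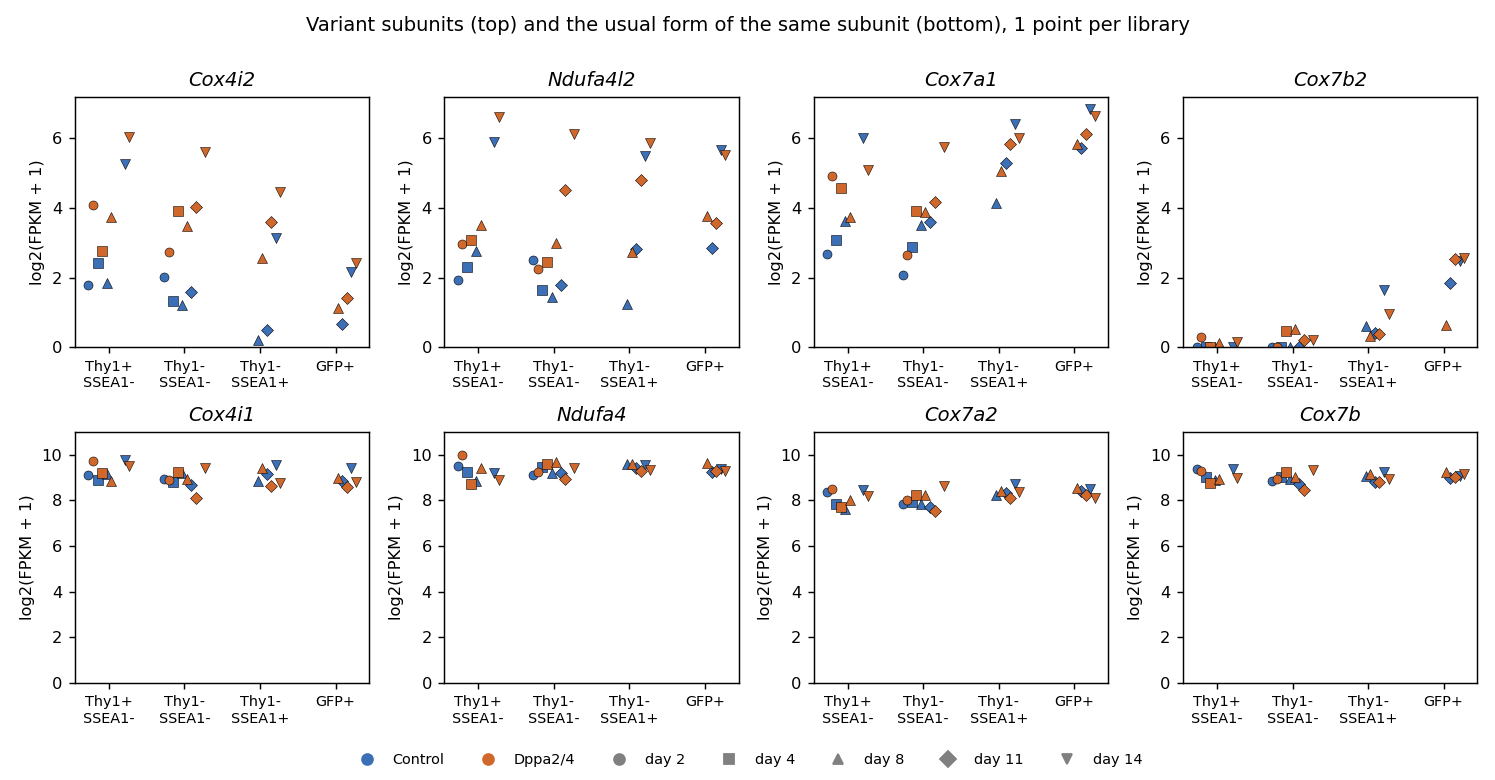
Level in log2(FPKM + 1) (vertical axis, with a different range in each row) of Cox4i2, Ndufa4l2, Cox7a1 and Cox7b2 (top row) and of their usual partners Cox4i1, Ndufa4, Cox7a2 and Cox7b (bottom row) by gate (horizontal axis), 1 point per library, with colour for the arm and shape for the day. Cox7a1 and Cox7b2 are highest in GFP+ cells, Cox4i2 is highest in SSEA1- cells at day 14, and the partners stay at high levels in all gates.

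Across days within a gate, calls were few among members and among all genes alike. In Thy1+SSEA1- cells, a slope per day over 8 libraries called 0 of 82 members, as it did 0% of all genes (limma). At an unadjusted p under 0.05, 7 members rose and 2 fell, with no matching share of all genes counted. The steepest was Ndufa4l2, at 0.32 per day on the log2 scale (adjusted p = 0.062). In Thy1-SSEA1- cells, over 9 libraries, 1 member rose (1.22%) and 0 fell, where 1.74% of all genes rose and 0.841% fell. That member was Cox7a1, at 3.20, 6.42, 10.3 and 11.0 FPKM in controls at days 2, 4, 8 and 11 and 5.26, 14.0, 13.7, 17.2 and 52.8 FPKM in the Dppa2/4 arm at days 2, 4, 8, 11 and 14. Its slope was 0.19 ± 0.04 (SE) per day (limma, adjusted p = 0.0448), and leaving out any 1 of 8 of the 9 libraries ended the call (adjusted p up to 0.202).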

How the data were processed

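PolyA RNA-seq values were taken from 1 table of FPKM per gene deposited by the authors. Reads were aligned with TopHat2 and FPKM computed with Cuffdiff on mm10, per the submitters' processing notes; versions and strand setting are not given in the sources used here. Of 33 value columns, 30 carry a sample's title, 2 without a gate were given to the rtTA-MEF pair and 1, Dppa2/4 day 11 Thy1+SSEA1-, was not used. Members and lists were chosen with earlier results of these data known. Genes with at least 1 FPKM in at least 2 libraries (17242) were fitted as log2(FPKM + 1) with limma 3.58.1 in R 4.3.3 (lmFit, eBayes with trend), with stratum or pair as a block, and p-values were adjusted by Benjamini-Hochberg over all genes (threshold 0.05). Fold changes on this scale understate the change of low genes. The scripts were tested on simulated data. Implied depth came from the smallest steps of FPKM in 2007 single-transcript genes longer than 2000 bases. In each comparison, up to 2 called members per complex and direction were named, with the variant subunits, their partners, the Sdh genes and up to 2 genes per list. Alternatives changed the pseudocount, filter, scaling, trend and block and left out libraries. The rtTA-MEF pair entered no test. Nothing in the labels says that libraries came from separate cultures.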

Additional observations from a re-analysis of the deposited data

Results flagged for a closer look

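The rtTA-MEF pair, whose columns carry no gate and whose description calls it OSKM-rtTA MEF, entered no comparison. It is described here for the 3 members called higher in the Dppa2/4 arm. Cox4i2 stood at 11.7 FPKM in the Dppa2/4 library and 1.19 FPKM in the control, Ndufa4l2 at 3.53 and 1.65 FPKM, and Atp5s at 10.9 and 6.97 FPKM. Each was above its control, with 1 library per arm and no test.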

How the results depend on the processing

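Among the genes named by the rule, no call changed direction under any alternative run. Direction was not checked for other calls, such as Ndufa2, Ndufc2, Ndufs4 and Cox4nb between GFP+ and SSEA1+ cells. Without the block, members called between arms went to 1 higher and 1 lower, between SSEA1+ and SSEA1- to 0 and 0, and between GFP+ and SSEA1+ to 4 and 1. With no filter on low values, 1 member was higher in SSEA1+ cells and 0 rose per day in Thy1-SSEA1- cells, as also without day 2 (0). Without the day 11 GFP+ control library, 6 were higher in GFP+ cells. In Thy1+SSEA1- cells, members rising per day were 2 at a mean of at least 5 FPKM, 1 with the filter applied to the libraries compared (chosen after seeing the data), and 2, with 1 falling, once the day 4 Thy1+SSEA1- library of the Dppa2/4 arm was dropped, whose removal also gave 1 lower member in the comparison of effects between gates.

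Leaving out each stratum, pair or library in turn gave 3 to 4 higher and 3 to 6 lower between arms, 0 to 2 and 0 to 1 for SSEA1+, 6 to 9 and 3 to 6 for GFP+, 0 to 2 and 0 to 1 for days in Thy1+SSEA1- cells, 0 to 1 rising in Thy1-SSEA1- cells, and 0 to 1 lower in the comparison of effects between gates. All-gene calls between arms split 2737 higher to 1310 lower as deposited, 2003 to 2153 after quantile normalization and 3241 to 931 after scaling to equal sums; between GFP+ and SSEA1+ they split 2957 to 4188, 3628 to 2958 and 2371 to 4595. The cause of these changes was not tested. Atp5a1 was not called between arms after quantile normalization (adjusted p = 0.058). Pairs of libraries of the same day and gate, or of the same arm and day, were the block of the comparisons throughout. No paired analysis was possible by replicate number because the labels give none to any library. With FPKM alone and 5 pairs, small differences of members under 1 FPKM were not detectable.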
